A study of Homo sapiens with 12 samples.

Results

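The core pluripotency genes described here are *POU5F1* (the gene of OCT4), *NANOG*, *ZFP42* (REX1), *TDGF1* (Cripto-1), *LIN28A*, *L1TD1* and *DPPA4*, taken by gene symbol from the 10976 genes listed for each library. All 7 were listed. They were followed in total RNA of cerebral organoids (COs), which are brain-like aggregates grown from human embryonic stem cells (hESCs) without regional guidance. The COs came from H1, an hESC line (WT), and from 2 CRISPR-Cas9 edited clones of it, which the labels call *c-JUN* KO#2 and KO#10. They were collected on day 12, during neural induction, and on day 24, after embedding in Matrigel. There were 2 libraries for each line and day, which made 2 WT and 4 KO-labelled libraries a day, and each library held RNA of several pooled COs. Each edited line is a single clone, so 2 clones stand behind the 4 KO-labelled libraries of a day. No library of undifferentiated hESCs was analysed here, so that the starting level of each gene is unknown.

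Pluripotent stem cells hold their state with a small circuit of transcription factors, in which OCT4, SOX2 and NANOG bind the promoters and enhancers of one another and of many other genes. Around this circuit stand a surface protein of the Nodal pathway (Cripto-1), RNA-binding proteins that block the maturation of let-7 miRNAs or bind mRNA, and chromatin proteins. These genes are switched off as cells leave pluripotency, although *SOX2*, *LIN28A* and some others stay on for a time in early neural cells.

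The values were whole-number scores that the authors had normalized, and not read counts. The highest value (5585) and the median (17) were the same in all 12 libraries, so that the depth is unknown and no counting error can be given. A score has no stated length correction, and scores of different genes were therefore not set against each other. Steps of 1 at low scores are coarse, and a score of 0 says only that a gene was listed at 0. *JUN*, the target of the edit, stood higher in each KO-labelled library than in either WT library of its day. Day 12 scores were 4 and 8 for WT, 19 and 18 for KO#2 and 14 and 13 for KO#10. Day 24 scores were 13 and 15 for WT, 39 and 39 for KO#2 and 29 and 32 for KO#10. At day 24 *JUN* was called higher (log2 fold change 1.25 ± 0.17, SE, limma, adjusted *p* = 0.0184), and at day 12 it was not called (1.33 ± 0.27, adjusted *p* = 0.131). The RNA values thus do not show the loss that the label names. The paper reports c-JUN protein as absent from these clones by western blot, and *c-JUN* mRNA as absent from KO COs by RT-qPCR. The scores differ from that RT-qPCR, and the reason was not tested. A gene-level score cannot tell whether an edit leaves the transcript in place, and it says nothing on the protein. Every direction given below is that of libraries labelled KO.

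The 5′ flanks of the genes are shown first, since OCT4 and SOX2 are known to bind an octamer next to a SOX motif in front of several genes of this circuit. RefSeq (GRCh38.p14) promoter windows were at hand for *NANOG*, *DPPA4*, *L1TD1* and *ZFP42*, which is 4 of the 7 genes, and not for *POU5F1*, *TDGF1* and *LIN28A*. Each line gives the last 150 bases before the RefSeq start on the gene's strand, 5′ to 3′. Capitals mark matches on either strand to ATTTGCA or TTTGCAT (the first and last 7 bases of the octamer, which overlap each other in a full octamer), to CATTGT (a SOX core) or to GGGCGG (a GC box).
*NANOG*, chr12:7789252-7789401, plus strand: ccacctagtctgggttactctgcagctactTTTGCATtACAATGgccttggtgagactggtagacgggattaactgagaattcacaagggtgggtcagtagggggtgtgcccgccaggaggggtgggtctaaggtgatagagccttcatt
*DPPA4*, chr3:109337547-109337696, minus strand: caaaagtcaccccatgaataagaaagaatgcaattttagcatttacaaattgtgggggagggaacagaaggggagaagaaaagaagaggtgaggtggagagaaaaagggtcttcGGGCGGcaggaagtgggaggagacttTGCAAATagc
*L1TD1*, chr1:62194699-62194848, plus strand: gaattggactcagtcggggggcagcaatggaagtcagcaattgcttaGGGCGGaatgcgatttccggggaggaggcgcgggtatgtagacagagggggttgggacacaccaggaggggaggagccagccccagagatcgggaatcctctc
*ZFP42*, chr4:187995621-187995770, plus strand: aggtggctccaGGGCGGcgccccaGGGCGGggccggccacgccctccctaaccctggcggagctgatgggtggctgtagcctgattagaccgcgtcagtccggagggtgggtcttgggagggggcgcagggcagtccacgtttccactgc

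In the *NANOG* flank, TTTGCAT lay at bases −120 to −114 from the start and the reverse complement of CATTGT at −112 to −107, 1 base apart. Among 35116 RefSeq promoters, 3.94% held TTTGCAT in the 250 bases before the start and 9.29% held CATTGT. *DPPA4* held ATTTGCA on the other strand at −10 to −4, a motif of 3.67% of promoters. *L1TD1*, *DPPA4* and *ZFP42* each held GGGCGG, as did 42.6% of promoters, and *NANOG* did not. The AP-1 motif TGAGTCA, to which JUN and FOS proteins bind (4.20% of promoters), and the related TGACGTCA (1.65%) were in none of these 4 windows. A match is a match of letters, and says nothing on binding in these COs.

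LIN28A protein blocks the maturation of let-7 miRNAs, and let-7 in turn targets *LIN28A* mRNA. The pair is shown because the time course of *LIN28A* differed between the genotypes in the test of the interaction below. The RefSeq sequence of let-7a carries the seed (bases 2 to 8) in capitals, and the second line is the stretch of *LIN28A* after its stop codon that is complementary to this seed, from GENCODE release 29 (GRCh38).
hsa-let-7a-5p: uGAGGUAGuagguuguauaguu
*LIN28A* site, chr1:26427348-26427372, plus strand: gcacagcctattgaaCTACCTCatt
*LIN28A* held 1 such seed match after the stop codon, and the other 6 genes held 0. Of 19113 protein-coding genes, 9.58% had at least 1. A seed match is a match of letters, and whether let-7 has a part in the scores of *LIN28A* was not tested.

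On day 12 the 7 genes lay lower in the KO-labelled libraries than in WT, by very different amounts. Every KO-labelled library was below both WT libraries for 7 of 7 genes, and the same held for 7.93% of all 10976 listed genes. *POU5F1* and *TDGF1* were called lower. *LIN28A* and *DPPA4* differed least. Called means an adjusted *p* under 0.05 and at least a 2-fold change in limma on log2 (score + 1), and 6 of the 7 genes passed the filter on low values on each day. On day 12 *TDGF1* and *ZFP42* passed it through the WT libraries alone. They could thus only lie lower, and the call of *TDGF1* adds no separate support to the count. Of the 8885 genes tested on day 12, 0.0675% were called lower and 0.0225% higher. In these bulk samples, fewer pluripotent cells and less RNA per cell cannot be told apart.

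*POU5F1* (ENSG00000204531, chromosome 6, 31164337 to 31180731, minus strand) encodes OCT4, the factor without which the pluripotent state is not kept. On day 12 its score was 107 and 136 for WT, 16 and 19 for KO#2 and 17 and 16 for KO#10. The 4 KO-labelled scores lay within 3 of each other and far below WT. The log2 fold change was −2.76 ± 0.15 (SE, limma, adjusted *p* = 0.000602), and *POU5F1* stayed called in all 6 fits that left out 1 library.

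*NANOG* (ENSG00000111704, chromosome 12, 7787794 to 7799146, plus strand), a homeodomain factor of the same circuit, had low scores. On day 12 they were 6 and 19 for WT, 3 and 2 for KO#2 and 2 and 1 for KO#10. The groups did not overlap, but the WT libraries differed more from each other than the lower of them differed from KO#2. *NANOG* reached the minimum score of 10 in only 1 library of that day and was not tested. Without the filter its log2 fold change was −2.02 (adjusted *p* = 0.232).

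*ZFP42* (ENSG00000179059, chromosome 4, 187995771 to 188005046, plus strand) encodes REX1, a zinc-finger factor widely used as a marker of undifferentiated cells. Its day 12 scores were 32 and 21 for WT, 4 and 8 for KO#2 and 5 and 9 for KO#10. In both clones replicate 2 was the higher, and in WT the lower. The log2 fold change of −1.90 ± 0.32 was not called (limma, adjusted *p* = 0.102).

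*TDGF1* (ENSG00000241186, chromosome 3, 46574534 to 46582457, plus strand) encodes Cripto-1, a co-receptor for Nodal. On day 12 it stood at 50 and 110 for WT, 3 and 4 for KO#2 and 3 and 5 for KO#10. No other gene of the 7 had a larger fold difference between the groups on that day. The log2 fold change was −4.01 ± 0.32 (limma, adjusted *p* = 0.00641). The call was lost without KO#2 replicate 1 (adjusted *p* = 0.0503), KO#2 replicate 2 (0.0628) or KO#10 replicate 1 (0.0717), and with the clones as separate groups. Without either WT library *TDGF1* fell under the filter.

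*LIN28A* (ENSG00000131914, chromosome 1, 26410817 to 26429728, plus strand) encodes the let-7-blocking protein introduced above. Its day 12 scores were 393 and 452 in WT, and 335 and 302 in each of KO#2 and KO#10. The identical pairs are levels of the normalization, since 335 was held by 2 genes and 302 by 7 genes in each of those libraries. The KO-labelled libraries lay below both WT libraries, and the log2 fold change of −0.40 ± 0.15 was not called (limma, adjusted *p* = 0.355).

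*L1TD1* (ENSG00000240563, chromosome 1, 62194849 to 62212328, plus strand) encodes an RNA-binding protein derived from a LINE-1 element, which is found with LIN28A in hESCs. It stood at 28 and 35 for WT, 15 and 15 for KO#2 and 18 and 12 for KO#10 on day 12. The log2 fold change was −1.03 ± 0.18 and was not called (limma, adjusted *p* = 0.105).

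*DPPA4* (ENSG00000121570, chromosome 3, 109326144 to 109337546, minus strand) encodes a chromatin-associated protein of pluripotent and germ cells. Its day 12 scores were 130 and 166 for WT, 96 and 83 for KO#2 and 106 and 82 for KO#10. The groups did not overlap, and the log2 fold change of −0.68 ± 0.17 was not called (limma, adjusted *p* = 0.200). The replicate numbers paired the libraries of day 12, and with the replicate number as a block, 4 of the 6 tested genes were called in place of 2. The genes added were *L1TD1* (adjusted *p* = 0.0449) and *ZFP42* (0.0407), while *DPPA4* (0.0761) and *LIN28A* (0.107) were still not called. Of the genes called, *TDGF1* and *ZFP42* had passed the filter through the WT libraries alone. The share of all genes called with the block is not given here, so that the rise cannot be set against it.

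**Figure D1:**
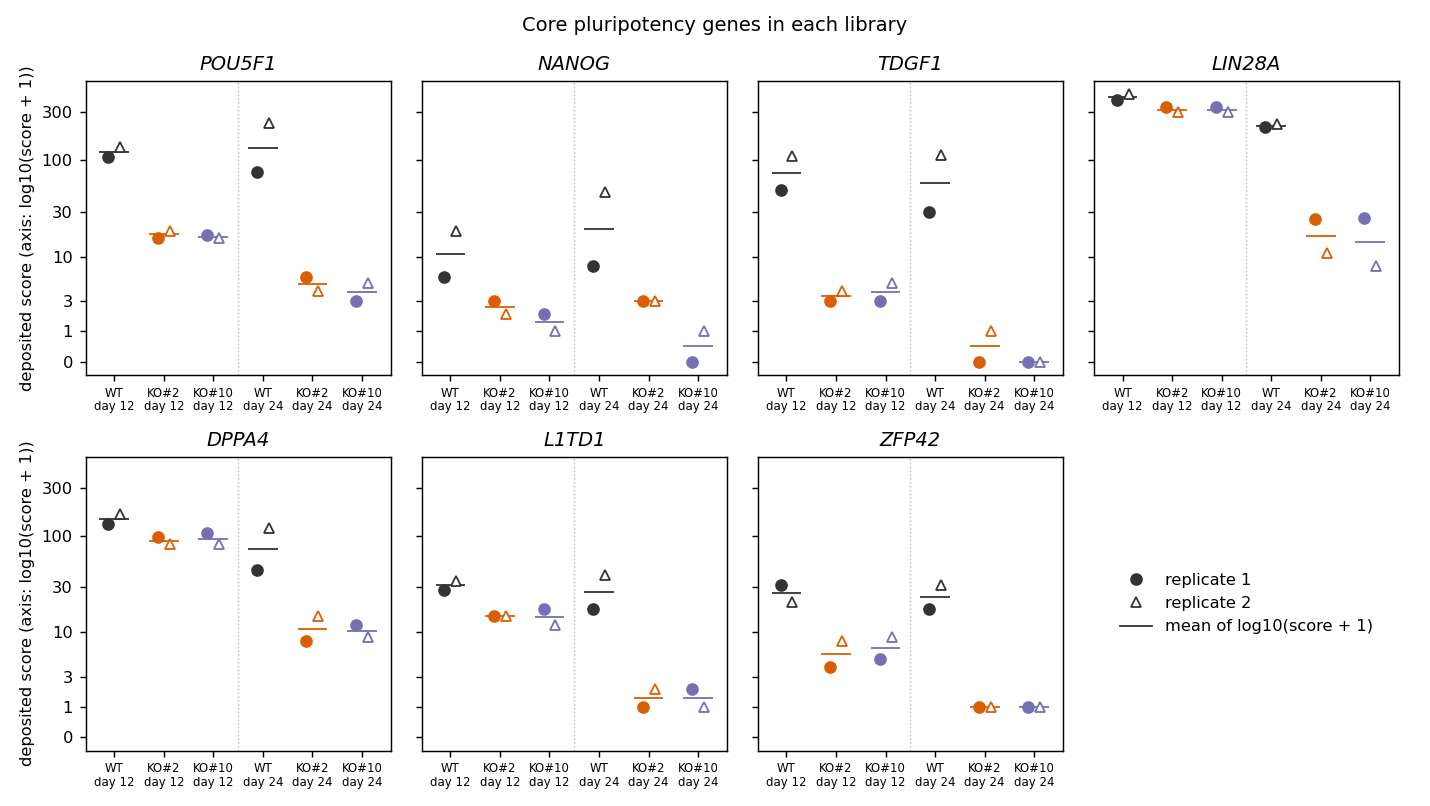
Deposited scores of the 7 core pluripotency genes in each of the 12 libraries, on a log10 (score + 1) axis labelled in scores. Points are libraries (filled circle, replicate 1, open triangle, replicate 2), bars are means of the 2 libraries on that axis, and colours are lines. In *POU5F1* and *TDGF1* the KO-labelled libraries of day 12 already lie well below WT, whereas in *LIN28A* and *DPPA4* they lie just below it and drop by day 24.

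On day 24 all 6 tested genes were called lower in the KO-labelled libraries, by log2 fold changes between −2.66 (*DPPA4*) and −5.64 (*TDGF1*). Of the 9289 genes tested on that day, 3.79% were called lower and 4.22% higher. Every KO-labelled library was again below both WT libraries for 7 of 7 genes, against 20.1% of all listed genes. *POU5F1*, *TDGF1*, *L1TD1* and *ZFP42* passed the filter through the 2 WT libraries alone, so that the number called among those tested is no separate support.

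Among the transcription factors, *POU5F1* stood at 75 and 236 for WT, 6 and 4 for KO#2 and 3 and 5 for KO#10 on day 24. The log2 fold change was −4.64 ± 0.44 (limma, adjusted *p* = 0.00898). *NANOG* stood at 8 and 48 for WT, 3 and 3 for KO#2 and 0 and 1 for KO#10. Here too only 1 library reached the minimum, and *NANOG* was not tested. It was called with a minimum score of 5 (adjusted *p* = 0.0486), and not without a filter (log2 fold change −3.14, adjusted *p* = 0.0531). At a minimum of 5 *NANOG* passed through the WT libraries alone and could only lie lower, so that this call is no separate support. *ZFP42* was at 18 and 32 for WT, with a score of 1 in each of the 4 KO-labelled libraries (log2 fold change −3.65 ± 0.47, adjusted *p* = 0.0181).

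*TDGF1*, the Nodal co-receptor, stood at 30 and 112 in WT, 0 and 1 in KO#2, and was listed at 0 in both KO#10 libraries. On the log2 (score + 1) scale the difference was −5.64 ± 0.69 (limma, adjusted *p* = 0.0181), a value that depends on the added 1. *LIN28A* stood at 212 and 228 for WT, 25 and 11 for KO#2 and 26 and 8 for KO#10. Its WT libraries were close together and its KO-labelled libraries were not. Replicate 1 exceeded replicate 2 in both clones. The log2 fold change was −3.73 ± 0.46 (adjusted *p* = 0.0181).

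*L1TD1* was at 18 and 40 for WT, 1 and 2 for KO#2 and 2 and 1 for KO#10 on day 24 (log2 fold change −3.51 ± 0.46, limma, adjusted *p* = 0.0184). *DPPA4* was at 45 and 118 for WT, 8 and 15 for KO#2 and 12 and 9 for KO#10 (−2.66 ± 0.40, adjusted *p* = 0.0196). Of the 7 genes *DPPA4* kept the highest share of its WT score.

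Within the 6 libraries of day 24, these calls depended on single libraries. None was called without KO#2 replicate 2, where *POU5F1* was at −4.60, *LIN28A* at −3.58 and *ZFP42* at −3.65, and where the adjusted *p* of the 6 lay between 0.0533 (*POU5F1*) and 0.0665 (*DPPA4*, *L1TD1*, *LIN28A* and *ZFP42*). Without KO#10 replicate 2 only *POU5F1* (0.0475) and *LIN28A* (0.0476) were called. Without 1 WT library only *LIN28A* and *DPPA4* passed the filter, and *DPPA4* was called without WT replicate 1 (0.0392) and neither without WT replicate 2 (0.231 for both). Without KO#2 replicate 1 or KO#10 replicate 1 all 6 were called. The log2 fold changes stayed negative in all of these fits. In 1 fit of all 12 libraries, which share one estimate of the spread, all 6 were called, with adjusted *p* between 2.6e-05 (*POU5F1*) and 0.000504 (*DPPA4*). *NANOG* was also tested and called in that fit, where *NANOG*, *TDGF1* and *ZFP42* passed the filter through WT libraries alone. Its count of calls is thus no separate support, and the share of all genes called in it is not given here.

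**Figure D2:**
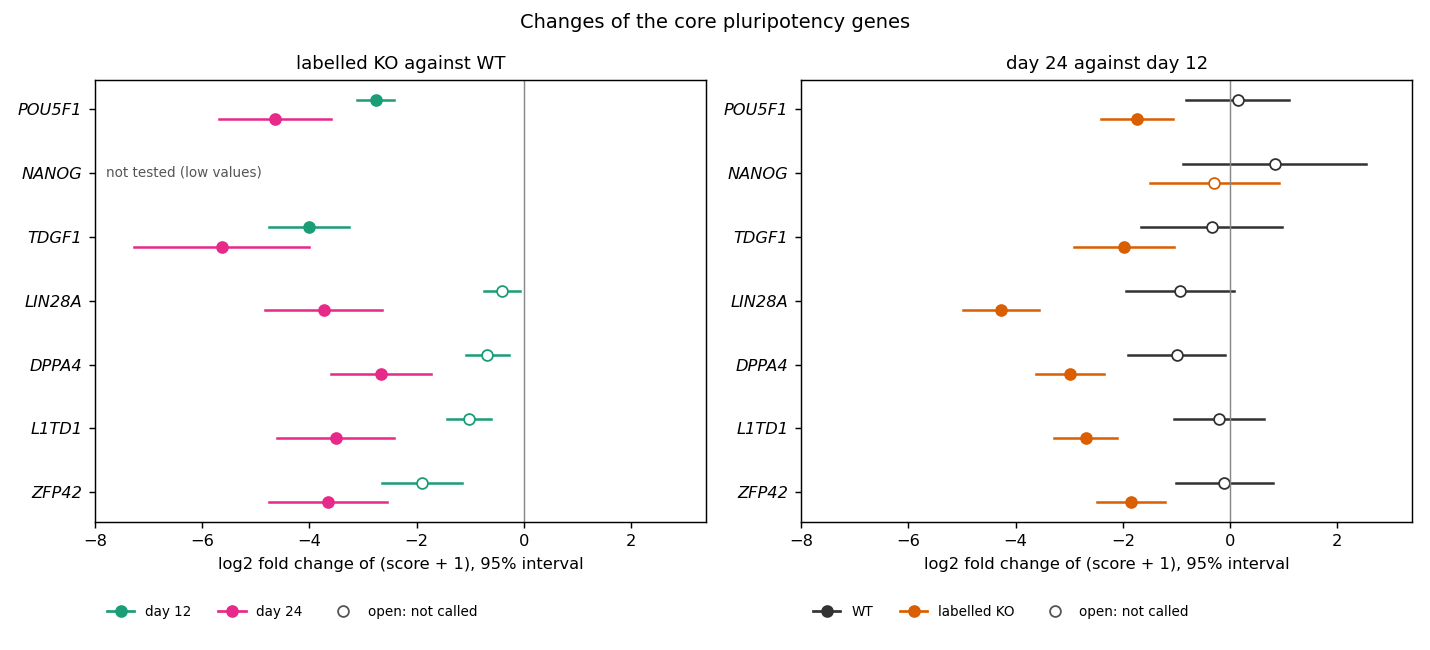
Log2 fold changes of (score + 1) with 95% intervals from limma, of KO-labelled against WT libraries on each day (left) and of day 24 against day 12 in each genotype (right). Filled points were called and open points were not. The left panel shows 2 genes called on day 12 and 6 on day 24, with *NANOG* not tested, and the right panel shows 0 genes called in WT and 6 in the KO-labelled libraries.

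The 2 WT libraries of day 24 differed widely for these genes. Replicate 2 was above replicate 1 in 7 of 7 genes, with a median log2 ratio of 1.37, while 42.3% of all genes were higher in replicate 2. *NANOG* (8 and 48), *TDGF1* (30 and 112) and *POU5F1* (75 and 236) differed most, and *LIN28A* (212 and 228) least. On day 12 replicate 2 was higher in 6 of 7 genes, *ZFP42* being the exception, with a median log2 ratio of 0.34. In the KO-labelled libraries no such shift was seen, with median log2 ratios of 0 in KO#2 on both days, and of −0.15 (day 12) and 0 (day 24) in KO#10. On day 24 most KO-labelled scores of these genes were at 6 or less, where a shift could hardly show.

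The order in which the genes went down in the KO-labelled libraries was read as the mean KO-labelled score in percent of the WT mean of the same day. On day 12 *TDGF1* was at 4.69%, *POU5F1* at 14%, *NANOG* at 16.0%, *ZFP42* at 24.5%, *L1TD1* at 47.6%, *DPPA4* at 62.0% and *LIN28A* at 75.4%. The ranges over the 4 KO-labelled libraries, which leave out the spread of WT, set *TDGF1* (3.75% to 6.25%) apart from the rest. Those of *POU5F1* (13.2% to 15.6%), *NANOG* (8% to 24%) and *ZFP42* (15.1% to 34.0%) overlapped in a middle group. *L1TD1* (38.1% to 57.1%) overlapped with *DPPA4* (55.4% to 71.6%), and *DPPA4* with *LIN28A* (71.5% to 79.3%). Against WT replicate 1 or replicate 2 alone, an alternative added after the values were seen, *NANOG* was at 33.3% or 10.5% and *TDGF1* at 7.5% or 3.41%. *TDGF1* stayed lowest, and *L1TD1*, *DPPA4* and *LIN28A* stayed the highest 3 in that order, while the places of *POU5F1*, *NANOG* and *ZFP42* changed.

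On day 24 the same measure ran from 0.352% in *TDGF1* over 2.89% in *POU5F1*, 4.00% in *ZFP42*, 5.17% in *L1TD1*, 6.25% in *NANOG* and 7.95% in *LIN28A* to 13.5% in *DPPA4*. These shares rest on a WT mean of 2 libraries that differed widely. Against WT replicate 1 or replicate 2 alone, *TDGF1* was at 0.833% or 0.223%, *POU5F1* at 6.0% or 1.91%, *L1TD1* at 8.33% or 3.75%, *NANOG* at 21.9% or 3.65%, *LIN28A* at 8.25% or 7.68%, *ZFP42* at 5.56% or 3.12% and *DPPA4* at 24.4% or 9.32%. *TDGF1* was lowest and *DPPA4* highest against either library, and the order of the other 5 genes changed. The ranges of *L1TD1* (3.45% to 6.90%), *NANOG* (0% to 10.7%) and *LIN28A* (3.64% to 11.8%) overlapped, and at such low scores 1 step of the score moves these places.

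From day 12 to day 24, none of the 7 genes was called in WT, where 7.74% of 9952 genes were called lower. *LIN28A*, which was at 52.1% of its day 12 mean on day 24, and *DPPA4*, at 55.1%, lay lower in both day 24 libraries than in both of day 12, an arrangement that 30.4% of all listed genes had. Their log2 changes were −0.94 ± 0.45 (limma, adjusted *p* = 0.147) and −1.0 ± 0.40 (adjusted *p* = 0.0911), and *DPPA4* was called without WT day 24 replicate 2 (adjusted *p* = 0.0256). The unadjusted *p* was under 0.05 for *DPPA4* alone. The other 5 genes had WT means on day 24 between 88.8% (*TDGF1*) and 224% (*NANOG*) of day 12, with overlapping libraries and log2 changes between −0.35 and 0.83. The 95% intervals of these changes were wide, for instance −0.81 to 1.10 for *POU5F1* and −1.67 to 0.97 for *TDGF1*.

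In the KO-labelled libraries 6 of the 7 genes were called lower on day 24 than on day 12, where 5.58% of the genes tested were called lower. *LIN28A* changed by a log2 of −4.27 ± 0.32 (limma, adjusted *p* = 3.82e-05), *DPPA4* by −2.98 ± 0.29 (0.000128), *L1TD1* by −2.69 ± 0.27 (0.000163), *TDGF1* by −1.98 ± 0.42 (0.00576), *ZFP42* by −1.85 ± 0.29 (0.00129) and *POU5F1* by −1.74 ± 0.30 (0.00222). In 6 genes every day 24 library was below every day 12 library, as in 14.4% of all listed genes. *NANOG*, already at 1 to 3 on day 12, changed by −0.29 ± 0.54 and was not called (adjusted *p* = 0.701). Day 24 means were 5.49% of day 12 for *LIN28A* and 26.5% for *POU5F1*. *LIN28A* had the smallest fold difference from WT on day 12, and its change after it uses the same day 12 scores. *TDGF1* and *ZFP42* were under the minimum of 10 in every KO-labelled library and were tested through their WT scores, so that their place in the count of 6 is no separate support. Their changes also depend on the added 1. With an added 5 neither was called, and with an added 0.1 the change of *TDGF1* (−4.37) was as large as that of *LIN28A* (−4.35).

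The difference between these time courses was tested as a genotype by day interaction in a fit of the 12 libraries, in which 0.854% of the genes tested were called in the lower direction. *LIN28A* (log2 difference −3.33 ± 0.51, limma, adjusted *p* = 0.0126) and *L1TD1* (−2.48 ± 0.42, adjusted *p* = 0.0245) were called. The values of *DPPA4* (−1.98 ± 0.45, adjusted *p* = 0.0537), *POU5F1* (−1.88 ± 0.49, 0.0697), *ZFP42* (−1.74 ± 0.46, 0.0697), *TDGF1* (−1.63 ± 0.69, 0.198) and *NANOG* (−1.12 ± 1.02, 0.569) were all negative and were not called. With the replicate block, which here had a term for each day, *DPPA4* (adjusted *p* = 0.0329) and *POU5F1* (0.0475) were called as well. The call of *LIN28A* was lost without WT day 12 replicate 1 (adjusted *p* = 0.108) or WT day 24 replicate 2 (0.0960). That of *L1TD1* was lost without these (0.137 and 0.154) and without WT day 12 replicate 2 (0.0527), KO#2 day 12 replicate 1 (0.0563) or replicate 2 (0.0564), or KO#10 day 12 replicate 1 (0.0513). Without WT day 24 replicate 1, *POU5F1* (0.0102) and *DPPA4* (0.0114) were called as well, and without KO#10 day 24 replicate 1 so were *POU5F1* (0.0397), *DPPA4* (0.0195) and *ZFP42* (0.0314).

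**Figure D3:**
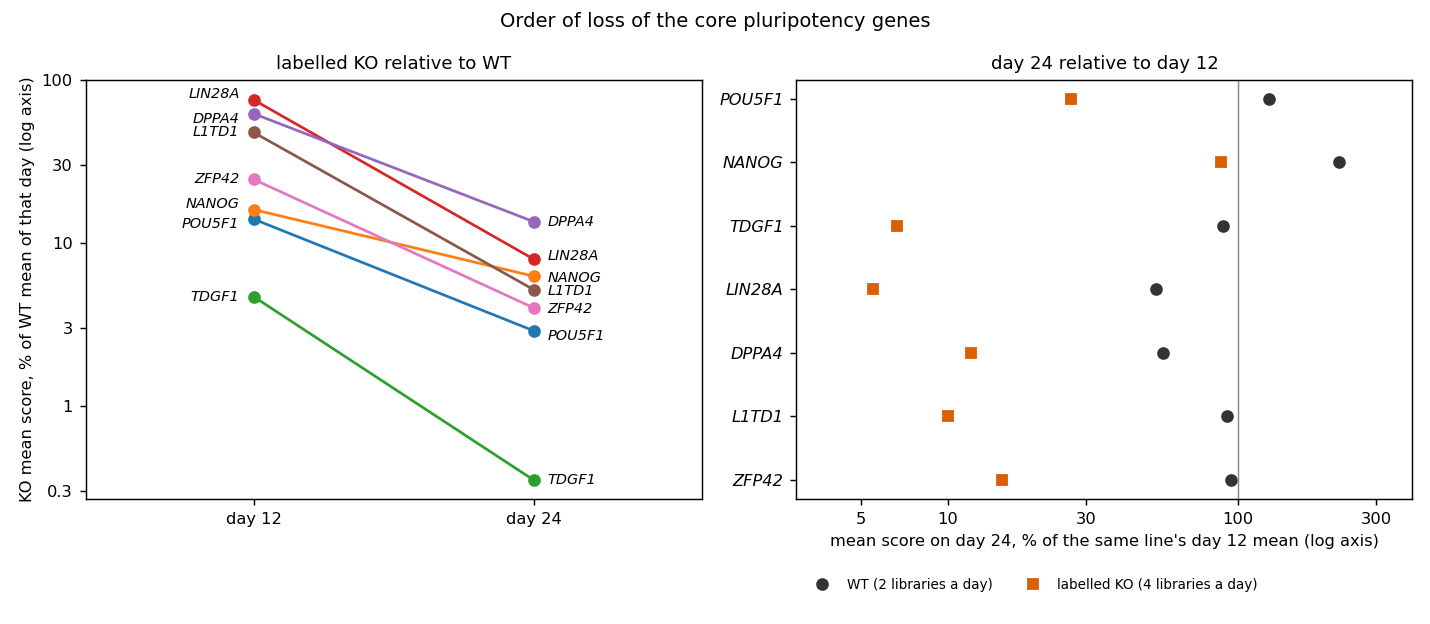
Mean score of the KO-labelled libraries in percent of the WT mean of the same day (left, log axis) and mean day 24 score in percent of the day 12 mean of the same genotype (right, log axis), for each gene. On the left *TDGF1* is lowest on both days and *LIN28A* moves from 75.4% to 7.95%. On the right the WT means lie between 52.1% and 224%, and the KO-labelled means between 5.49% and 87.5%.

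Each edited clone was also set against WT. In the fit with the lines as separate groups, all 7 genes including *NANOG* were called lower on day 24 in KO#2 and again in KO#10, each against the same WT libraries. *NANOG*, *TDGF1* and *ZFP42* passed its filter through WT libraries alone, so that the count of 7 is no separate support. In this fit 6.74% of the genes tested were called lower in KO#2 and 2.6% in KO#10. Log2 fold changes were −4.50 ± 0.43 in KO#2 and −4.78 ± 0.43 in KO#10 for *POU5F1*, −3.64 ± 0.45 and −3.82 ± 0.45 for *LIN28A*, and −2.39 ± 0.77 and −3.89 ± 0.77 for *NANOG*. On day 12 none of the 7 was called in either clone, where 0 genes were called lower in KO#2 (0.0%) and 0 in KO#10 (0.0%), while 907 and 513 genes had an unadjusted *p* under 0.05. With the replicate block *TDGF1* was called on day 12 in KO#2 (adjusted *p* = 0.0198) and in KO#10 (0.0462).

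Between the clones no gene was called on day 12 (0.0%) or on day 24 (0.0%) in either direction, with 154 and 575 genes at an unadjusted *p* under 0.05. The differences of KO#2 from KO#10 on day 12 lay between −0.21 (*ZFP42*) and 0.50 (*NANOG*) on the log2 scale. On day 24 they lay between 0 (*L1TD1* and *ZFP42*) and 1.5 (*NANOG*, 95% interval −0.21 to 3.21). The intervals were wide, as for *LIN28A* on day 24 (−0.82 to 1.18), and do not show that the clones were alike.

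Some marker lists of other cell types also differed between WT and the KO-labelled libraries on day 24, in both directions. The summed score of the endoderm and yolk sac markers (*AFP*, *APOA1* and *APOB*, the 3 of 8 that were listed) was 5793 and 5769 for WT, 51 and 1 for KO#2 and 947 and 2 for KO#10, after 0 to 14 in all libraries of day 12. *AFP* alone stood at 5585 in both WT libraries of day 24, the highest score that the normalization gives. The WT sums are thus mostly 1 gene at its ceiling, and their closeness says little. The neuron markers (7 of 7 listed) summed to 277 and 138 for WT, 1466 and 1854 for KO#2 and 319 and 1276 for KO#10. KO#10 replicate 1 thus stood apart from the other KO-labelled libraries in both lists. Its summed score of the 7 pluripotency genes was 44, against 44, 37 and 25 in the other 3 and 406 and 814 in WT. *LIN28A* alone held 26 of the 44 in KO#10 replicate 1 and 212 of the 406 in WT replicate 1. In replicate 2 it held 8 of the 25 in KO#10 and 228 of the 814 in WT, so that its weight in the sum varied.

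The neural progenitor markers (9 of 9 listed) summed to 468 and 234 in WT and 428 to 591 in the KO-labelled libraries on day 24. On day 12 they summed to 478 and 527 in WT and to 634 to 854 in the KO-labelled libraries. Single genes weighed heavily in the sums of day 24, such as *FABP7* (200 in WT replicate 1) and *ZIC1* (250 in KO#10 replicate 1). Such sums over different genes do not show the identity of the tissue. The surface ectoderm and epithelium markers (6 of 9 listed, *EPCAM* and *CDH1* also being in a list of hESC genes below) summed to 602 and 797 in WT and 44 to 249 in the KO-labelled libraries on day 24. Germ cell markers, which matter here because germ cells also use *POU5F1*, *NANOG* and *DPPA4*, had 3 of 7 genes listed and summed to 17 and 35 in WT and 11 to 21 in the KO-labelled libraries. What part these other cells have in the values of the 7 genes was not tested.

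**Figure D4:**
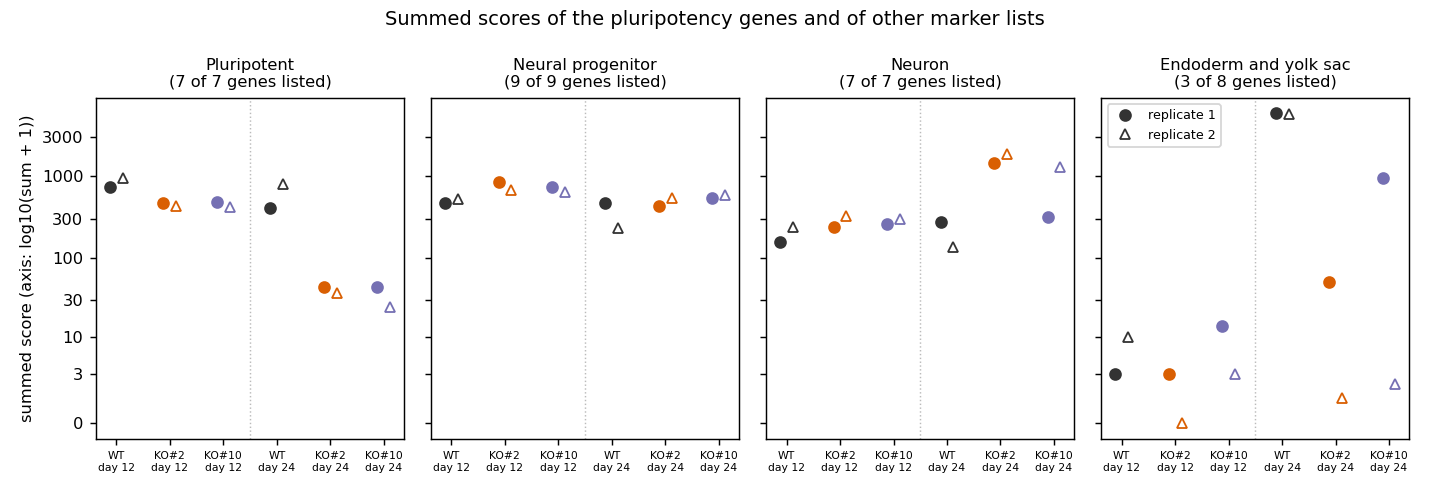
Summed scores of 4 marker lists in each library, on a log10 (sum + 1) axis labelled in scores (filled circle, replicate 1, open triangle, replicate 2). On day 24 the 4 KO-labelled libraries lie between 25 and 44 for the pluripotency genes, while KO#10 replicate 1 reaches 947 for the endoderm markers, where the other 3 lie between 1 and 51.

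Other genes of pluripotent cells were examined in lists of 72 genes, of which 44 were listed here and none of the 12 genes of the naive state. On day 12, 1 of 37 tested was called lower, against 0.0675% of all genes tested, and 0 higher. It was *DNMT3B*, a DNA methyltransferase of early embryonic cells, at 100 and 114 in WT and 28 to 42 in the KO-labelled libraries (log2 fold change −1.52 ± 0.19, limma, adjusted *p* = 0.0389). On day 24, 14 of 36 were called lower, against 3.79% of all genes tested, and 0 higher, with a median log2 fold change of −0.61 over the 36 and of 0.01 over all genes tested. In the KO-labelled libraries 20 of 42 were called lower and 1 higher (*TFAP2C*, log2 change 1.74) from day 12 to day 24, against 5.58% of all genes called lower, and in WT 8 were lower, against 7.74%, and 1 higher. Among the 20, *VRTN*, *ZSCAN10* and *EPCAM* reached the minimum of 10 in no KO-labelled library of either day. They were tested through their WT scores, so that their place in the count is no separate support. Of the 36 genes tested on day 24, 8 reached the minimum of 10 in no KO-labelled library and thus had to lie lower there, and 7 of the 14 called were among them (*NR6A1*, *FGFR4*, *USP44*, *CDH1*, *EPCAM*, *MIR302CHG* and *FOXH1*).

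Among the other transcription factors, 2 of 8 tested were called lower on day 24. They were *NR6A1*, an orphan nuclear receptor (44 and 38 in WT and 6 to 8 in the KO-labelled libraries, −2.40 ± 0.18, limma, adjusted *p* = 0.00538), and *SALL4*, a zinc-finger partner of OCT4 (52 and 55 against 17 to 27, −1.30 ± 0.20, 0.0196). *SOX2*, the partner of OCT4 that neural progenitors also use, did not follow the 7 genes. It was at 56 and 44 for WT, 48 and 67 for KO#2 and 34 and 73 for KO#10, with overlapping groups (log2 fold change 0.10 ± 0.31, adjusted *p* = 0.832). From day 12 to day 24 *SOX2* was called lower in WT (−1.31) and in the KO-labelled libraries (−1.13).

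In the list of RNA-binding proteins and the let-7 axis, 3 of 8 were called lower on day 24. *TRIM71*, a let-7 target and ubiquitin ligase, stood at 34 and 50 in WT and 6 to 16 in the KO-labelled libraries (−2.06 ± 0.37, limma, adjusted *p* = 0.0228). *LIN28B*, the paralog of *LIN28A*, stood at 62 and 78 against 19 to 28 (−1.56 ± 0.19, 0.0181), and *ARID3A* was lower as well (−1.20 ± 0.23, 0.0247). On day 12 these 3 genes had overlapping groups. *LIN28B* (interaction −1.54, limma, adjusted *p* = 0.0245) and *TRIM71* (−1.83, 0.0499) were called in the genotype by day interaction, as *LIN28A* was. Over all the lists, 5 of 42 genes tested were called lower in this interaction, against 0.854% of all genes tested. Outside the let-7 list these were *NR6A1* (−2.09, 0.00298), *SALL4* (−1.20, 0.0367) and *EPCAM* (−3.05, 0.0462). *EPCAM* had passed the filter through WT libraries alone. *HMGA2*, a further let-7 target, was not called on day 24 (1.09 ± 0.48, adjusted *p* = 0.141), at 45 and 51 in WT and 62, 176, 63 and 162 in the KO-labelled libraries.

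Of the Nodal and FGF genes, 1 of 5 tested was called lower on day 24, the receptor *FGFR4* (16 and 23 in WT and 1 to 4 in the KO-labelled libraries, −2.71 ± 0.45, limma, adjusted *p* = 0.0210). Of the remaining genes high in hESCs, 8 of 15 were called lower, with a median log2 fold change of −2.14, and 5 of these 8 had passed the filter through WT alone. *MIR302CHG*, the host transcript of the miR-302 cluster, stood at 120 and 250 in WT, with 6, 3, 3 and 0 in the KO-labelled libraries (−5.74 ± 0.73, adjusted *p* = 0.0181). *EPCAM* (−4.44), *FOXH1* (−4.42) and *CDH1* (−3.71) followed. *EPCAM* and *CDH1* are epithelial adhesion genes, and *EPCAM* was also the 1 gene of these lists called higher from day 12 to day 24 in WT (log2 change 1.86).

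The genes whose scores ran most like the mean of the 7 over the 12 libraries were, by Pearson *r* on the log2 scale among 9942 genes, *VRTN* (0.993), *DNMT3B* (0.979), *ETAA1* (0.974), *GPR176* (0.968), *ZSCAN10* (0.968), *LYN* (0.950), *SLC2A3* (0.947) and *GNPNAT1* (0.946). The 12 libraries share lines and days, so that these values are a description. Pearson *r* takes no account of the size of a change. *ETAA1* lay between 10 and 17 in all 12 libraries, and *LYN* between 3 and 12. *VRTN*, the nearest, stood at 13 and 20 in WT and 4 to 5 in the KO-labelled libraries on day 12, and on day 24 its WT scores were 9 and 19 with 0 in each KO-labelled library. *ZSCAN10*, a zinc-finger factor of hESCs, was likewise listed at 0 in all 4 KO-labelled libraries of day 24, with 7 and 30 in WT. By Spearman *rho*, 3 of these 8 (*ETAA1*, *VRTN* and *ZSCAN10*) remained among the nearest 8, which *HHLA1* led (0.984).

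Within the 7, *POU5F1* and *TDGF1* were nearest to each other (*r* = 0.982 over the 12 libraries), and so were *DPPA4* and *L1TD1* (0.968). *LIN28A* was nearest to *DPPA4* (0.950), *ZFP42* to *POU5F1* (0.967) and *NANOG* to *POU5F1* (0.871). The least alike were *NANOG* and *LIN28A* (0.435).

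Some of these genes share exon sequence with near copies, whose reads the counting could split in ways the scores do not show. Of the 50-base windows of GENCODE release 29 coding transcripts, 39.9% of those of *TDGF1* also occur in its copy *TDGF1P3*. For *POU5F1* 31.6% and for *NANOG* 16.2% of the windows occur in another gene, mostly in copies of their own. For *LIN28A*, *DPPA4* and *ZFP42* the shares are 1.5%, 0.729% and 1.58%, and for *L1TD1* 5.71%. The interval of *POU5F1* also overlaps *TCF19* on the opposite strand and *PSORS1C3* on its own, and that of *TDGF1* overlaps *LRRC2* on the opposite strand and *AC104304.1* on its own. Strand does not separate the genes on the same strand. The libraries were strand-specific, and whether the counting used the strand is not given in the sources used here.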

How the data were processed

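Total RNA of COs was sequenced after rRNA depletion with a strand-specific kit, in 12 libraries (3 lines, 2 days, 2 replicates). The authors deposited 1 whole-number score per gene and library, for 10976 genes. The scores were not raw counts, since the median (17), the highest value (5585) and nearly all of the 269 to 271 distinct values were shared by all libraries, with totals of 473637 to 483149. The normalization and its tools are not given in the paper's text, and sequencing depth is unknown. The submitters' processing notes name bcl2fastq, Bowtie2 and RSEM, and the mouse build mm10, which does not match the human gene identifiers. The listed coordinates closely match GENCODE release 29 (GRCh38). Such a normalization gives every library 1 distribution, so that a shift common to most genes cannot be seen.

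Groups and replicate numbers came from the sample labels. Nothing states that the libraries of a group came from separate cultures, so that *p*-values measure only the spread between libraries, which may be technical. Scores were transformed as log2 (score + 1), and limma 3.58.1 (R 4.3.3, eBayes with trend, two-sided) was run on genes that reached 10 in 2 or more of the libraries compared. Benjamini-Hochberg adjustment of *p*-values was over all genes tested. Calls needed an adjusted *p* under 0.05 together with a log2 change of 1 or more in size. The fits were KO against WT within a day (2 and 4 libraries), the interaction over 12 libraries in 4 groups, and day changes and clones over 12 libraries in 6 groups. Fold changes on this scale understate changes of low scores. On simulated data of the same size the test was checked for recovery of known changes.

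On day 12, deviations from the group means correlated between libraries with 1 replicate number, with *r* over 9952 genes of 0.393 for WT with KO#2, 0.376 for WT with KO#10 and 0.556 for KO#2 with KO#10, and the numbers were taken to pair them. The pairing comes from the labels. The genes, lists, tests and the rule for named genes (all 7 genes, *JUN*, listed genes with the largest called changes or counted in a sentence, and the 8 most alike over the libraries) were chosen with earlier results of these data known. Alternatives were other filters, pseudocounts of 0.1 and 5, no trend, a replicate block, centred libraries, 1 fit of all libraries, separate clones, Spearman *rho*, each library left out in turn and, added after seeing the data, shares of each WT library alone. Motifs, sequences and overlaps were read with Python 3.11.15 (pandas 2.3.3, numpy 2.4.6), and figures were drawn with matplotlib 3.10.9.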

Additional observations from a re-analysis of the deposited data

Results flagged for a closer look

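*TDGF1* in the KO-labelled libraries of day 24 had 1 library apart from the other 3, with scores of 0 and 1 in KO#2 and 0 and 0 in KO#10. The gap of the highest library to the nearest other made up the whole range (ratio 1.0, above Dixon's 95% critical value for 4 samples). The gap is 1 step of the score. It was the only such library among 14 groups of 4 examined, where chance alone marks about 1 group in 20.

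The change from day 12 to day 24 differed between the genotypes for 2 of the 7 genes by the limma test of the interaction. For *LIN28A* the log2 difference was −3.33 (adjusted *p* = 0.0126), with all 4 KO-labelled libraries between 302 and 335 on day 12 and between 8 and 26 on day 24, and with WT at 393 and 452 on day 12 and 212 and 228 on day 24. For *L1TD1* the log2 difference was −2.48 (adjusted *p* = 0.0245), with the KO-labelled libraries between 12 and 18 on day 12 and between 1 and 2 on day 24, and with WT at 28 and 35 and then 18 and 40.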

How the results depend on the processing

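The numbers of the 7 genes called were within 1.5 times of the reported ones in 76 of 81 settings that left out no library, and in 42 of 60 that left out 1. With the replicate block, which the pairing of day 12 asks for, they rose to 4 for KO against WT on day 12, to 4 for the interaction (*DPPA4* and *POU5F1* added), and to 1 each for KO#2 and KO#10 against WT on day 12, and on day 24 the block changed none of the 6 calls. On day 24 the correlations of deviations were lower for each pair of lines than on day 12, at 0.218 (WT with KO#2), −0.0944 (WT with KO#10) and 0.328 (KO#2 with KO#10). No pairing was taken from them, and no cut-off was set for this choice. In fits that held both days, the block had a term for each day. The shares of all genes called with the block are not given here, so that the rises with it cannot be set against them. With the clones as separate groups, 1 gene was called on day 12. Part of the agreement over the 81 settings was fixed in advance. Centring moved no count, since the libraries share the same median, and a count of 0 that stayed 0 was taken as within the limit. By Spearman *rho*, 3 of the 8 nearest genes were shared. With 1 library left out, the calls ranged from 1 to 2 on day 12, 0 to 6 on day 24, 0 to 1 for the change of WT, 0 to 5 for the interaction, 6 to 7 for KO#2 and 5 to 7 for KO#10 on day 24, and were 6 throughout for the change of the KO-labelled libraries. The small changes of WT turned sign in 7 such fits. They ranged from −0.68 (without WT day 24 replicate 2) to 0.96 (without WT day 24 replicate 1) for *POU5F1*. By the same libraries they ranged from −1.28 to 0.59 for *TDGF1*, −0.77 to 0.34 for *L1TD1* and −0.50 to 0.29 for *ZFP42*. Without 1 WT day 12 library they were −0.03 for *POU5F1*, 0.21 for *TDGF1* and 0.19 for *ZFP42*. No other direction of the 7 genes turned in the 5 main comparisons. Where a WT library was left out, its group held 1 library, assumed to vary like the others, and fewer genes passed the filter. The cause of the remaining changes was not tested. Scores carry no depth, and those under about 5 resolve only steps of 1.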
